A study of Mus musculus with 6 samples.

Results

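Fatty acid oxidation in Kupffer cells, macrophages that live in the liver sinusoids, was read through 36 genes of the mitochondrial and peroxisomal pathways. The genes were chosen by symbol from known pathway membership, with earlier results of these data known. Each symbol was matched to 1 of the 54532 genes in the deposited count table. By the main place of the protein, 20 are mitochondrial, 6 are peroxisomal and 4 (Ech1, Eci2, Crat and Acad11) are found in both compartments or are unsettled. The last 6 (Acsl1, Acot13, Ucp2, Pex11a, Ppargc1a and Ppargc1b) are linked proteins that are not core enzymes of either cycle.

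The study set Kupffer cells of Trem2-deficient mice (Trem2_KO, 3 libraries) against those of wild-type littermates (WT, 3 libraries). Trem2 encodes a lipid-sensing receptor of myeloid cells. Mice of both genotypes were male, were 8 weeks old when a high fat diet began and ate it for 8 weeks. Kupffer cells were sorted from the liver and their total RNA was sequenced. The sort gate, and the part of Trem2 that was deleted, were not given in the sources used here. Whether the libraries come from separate mice is not stated either, and p-values then reflect library-to-library spread that may be technical.

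Mitochondrial beta-oxidation shortens fatty acids inside the matrix. Long chains are bound to coenzyme A, carried in by the carnitine shuttle, and cut by repeated rounds of dehydrogenation, hydration, a second dehydrogenation and thiolysis, with electrons passed on through the electron transfer flavoprotein. Peroxisomes run a parallel cycle on very long and branched chains, begun by an oxidase in place of a dehydrogenase, and export shortened chains for the mitochondria to finish. In hepatocytes many genes of both pathways are targets of the lipid-activated receptor PPAR alpha.

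Trem2 itself checked the labels. It was read at 16.7, 17.4 and 14.5 CPM (reads scaled to library size, with TMM factors) in Trem2_KO libraries, against 84.8, 90.1 and 84.3 CPM in WT libraries, a log2 fold change of -2.42 (SE 0.06, edgeR adjusted p = 1.68e-35). Libraries held 15799351 to 17135603 reads assigned to genes, and log2 CPM correlated at 0.992 to 0.993 within a group and at 0.982 to 0.984 between groups. Summed Kupffer cell markers ran from 41450 to 41770 CPM in Trem2_KO libraries and from 46410 to 47440 CPM in WT libraries, and Clec4f, a marker of Kupffer cells, averaged 11200 CPM in Trem2_KO and 12330 CPM in WT. Summed hepatocyte markers ran from 1812 to 1828 CPM in Trem2_KO and from 2086 to 2147 CPM in WT.

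The pathway did not move as a block. Of the 36 genes, 35 passed the filter on low counts and 1, Ppargc1a, did not. By edgeR's quasi-likelihood test at an adjusted p under 0.05, 6 members rose in Trem2_KO (Cpt1b, Acaa1b, Ehhadh, Eci2, Acsl1 and Ppargc1b) and 7 fell (Acaa2, Etfb, Hadhb, Hadh, Acot13, Acadl and Crot). These 13 are 37.1% of the members tested, against 30.4% called among all 13776 genes tested, of which 15.3% were higher and 15.1% lower in Trem2_KO. With total counts in place of TMM, 61.3% of all calls were higher, beside 50.3% with TMM. The median log2 fold change of the 35 tested members was -0.03, with 12 above 0 and 23 below, against a median of -0.01 over all genes tested. In bulk samples, fewer cells of a type and less RNA per cell cannot be told apart, and this holds for every change below.

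**Figure D1:**
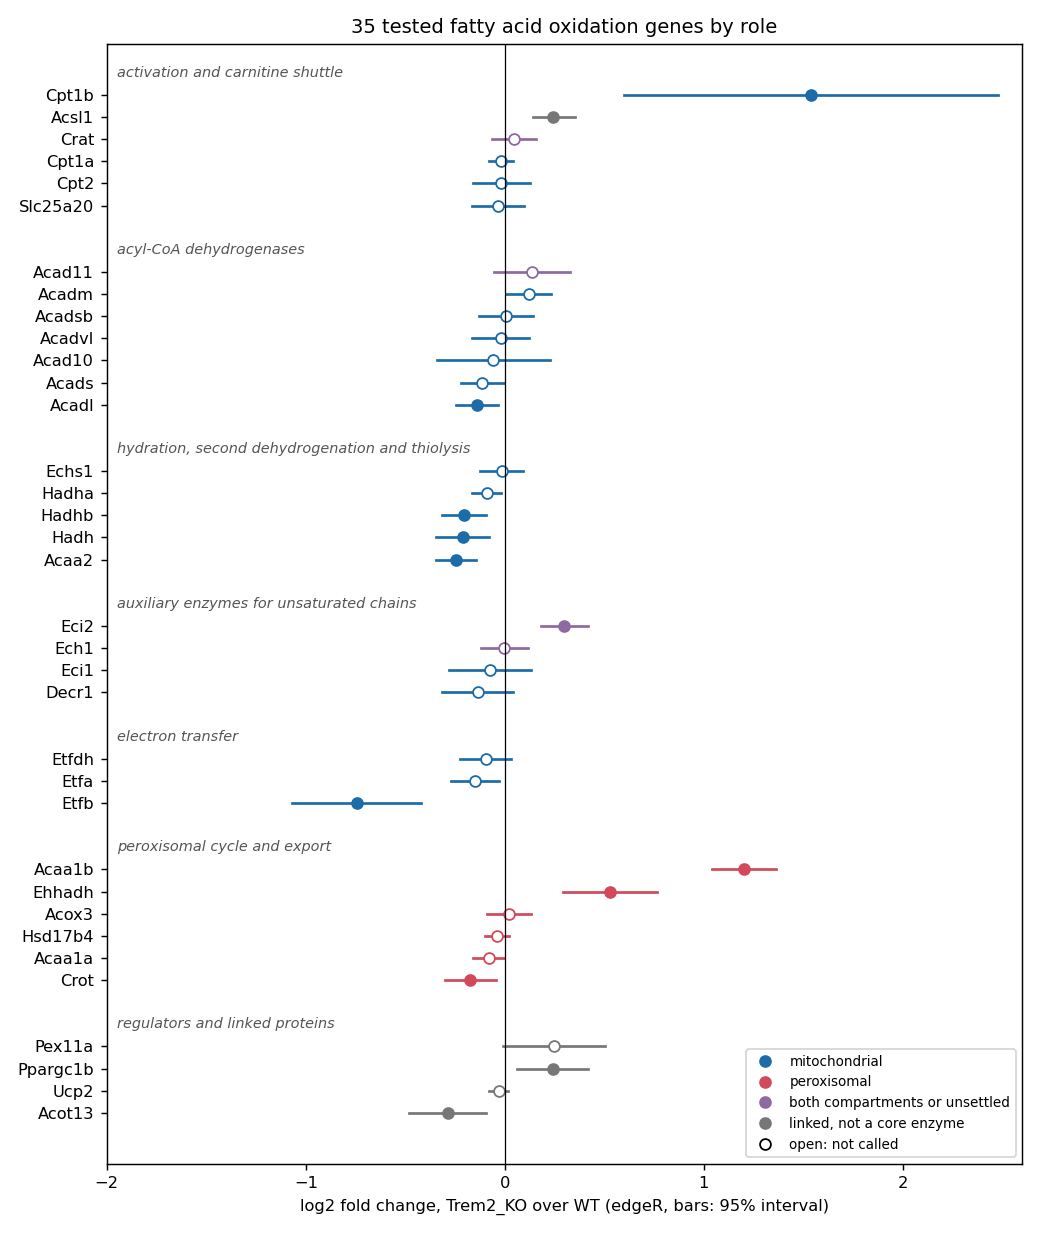
Log2 fold change (Trem2_KO over WT, edgeR) of the 35 tested members, grouped by role, with bars for the 95% interval and colour for the compartment. Acaa1b, Cpt1b and Ehhadh stand to the right of the rest, Etfb stands to the left, and the enzymes of hydration, the second dehydrogenation and thiolysis all lie below 0.

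Calls among mitochondrial enzymes were mostly lower, and calls among peroxisomal enzymes ran both ways. Among the 20 mitochondrial members 1 rose, the low-level Cpt1b, and 5 fell. These calls are 30.0% of the mitochondrial members, close to the 30.4% called among all genes tested. By direction, 5.0% were called higher and 25% lower, against 15.3% and 15.1% of all genes tested. The median log2 fold change of the mitochondrial members was -0.08, and 17 of the 20 lay below 0, where 49.0% of all genes tested lay above 0. With total counts the median was -0.05 and 13 of the 20 lay below 0, as they did without Trem2_KO replicate 3 (median -0.04). Among the 6 peroxisomal members 2 rose, Acaa1b and Ehhadh, and 1 fell, Crot. Their median was -0.01, and 0.02 with total counts. The medians differed by 0.07 on the log2 scale, and by 0.034 without WT replicate 1, 0.042 without Trem2_KO replicate 3 and 0.123 without WT replicate 3. The same difference taken per library was 0.04, 0.08 and 0.13 in Trem2_KO and -0.03, 0.04 and 0.02 in WT (SD over libraries 0.04), and the groups overlapped. The difference between the compartments was not tested.

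Summed per length, the mitochondrial members were lower in Trem2_KO, and the peroxisomal sum depended on Acaa1b and Ehhadh. The deposited FPKM values, which divide reads by gene length and library depth, of the mitochondrial members summed to 304.7, 298.5 and 291.8 in Trem2_KO libraries, against 320.5, 322.6 and 317.6 in WT libraries, so every Trem2_KO library was below every WT library. The peroxisomal members summed to 143.0, 148.1 and 144.2 FPKM in Trem2_KO, against 139.2, 141.7 and 137.8 FPKM in WT, without overlap and higher. Without Acaa1b and Ehhadh, the other 4 peroxisomal members summed to 123.9, 127.3 and 123.0 FPKM in Trem2_KO. In WT they summed to 129.6, 131.4 and 128.1 FPKM, above every Trem2_KO library. The depth used for FPKM was 1.014 to 1.016 times the library total in Trem2_KO and 0.989 to 0.995 times it in WT. On plain library totals these Trem2_KO sums would be higher and the WT sums slightly lower, so this small gap depends on scaling. In summed CPM, which weighs long genes more, the 6 peroxisomal members overlapped between groups, at 543.0 to 557.8 in Trem2_KO and 540.9 to 553.0 in WT. The ratio of the peroxisomal to the mitochondrial sum averaged 0.487 ± 0.015 in Trem2_KO and 0.436 ± 0.00304 in WT (SD, n = 3 each). Left out of the sum, Acaa1b took most of the gap with it: the ratio was then 0.432 ± 0.0109 in Trem2_KO and 0.414 ± 0.00233 in WT (SD, n = 3 each), and its lowest Trem2_KO value, 0.419, lay just above the highest WT value, 0.416.

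**Figure D2:**
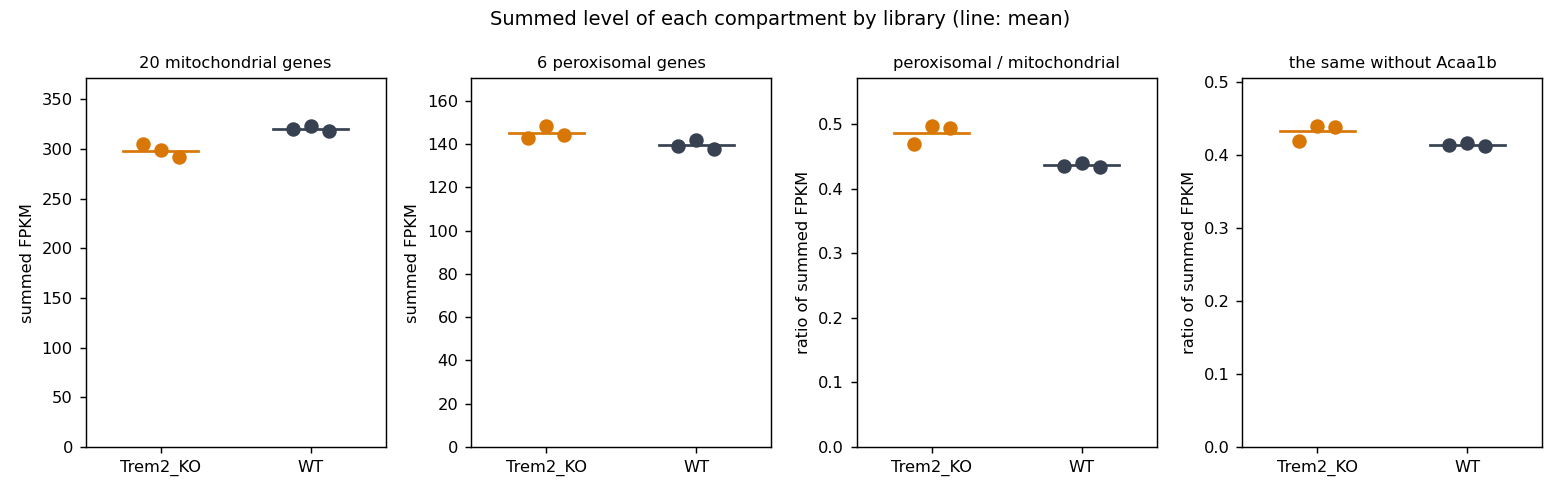
Summed FPKM of the 20 mitochondrial and 6 peroxisomal members and the ratio of the sums, per library (dots) with group means (lines), Trem2_KO left of WT; axes start at 0. The mitochondrial sum is lower and the ratio higher in all 3 Trem2_KO libraries, and the gap in the ratio narrows without Acaa1b.

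Levels per length set the scale of these changes. Ucp2, an inner-membrane carrier abundant in macrophages, stood highest at 293.7 ± 7.36 FPKM in Trem2_KO and 300.5 ± 5.61 FPKM in WT (SD, n = 3 each). Hsd17b4, the D-bifunctional protein of peroxisomes, came next with 87.9 ± 2.16 FPKM in Trem2_KO and 90.6 ± 0.937 FPKM in WT, and then Cpt1a with 78.0 ± 0.91 FPKM in Trem2_KO and 79.1 ± 2.18 FPKM in WT (SD, n = 3 each). The mitochondrial thiolase Acaa2 followed with 37.2 FPKM in Trem2_KO and 44.2 FPKM in WT, and Acadl with 30.0 and 33.2 FPKM in the same groups. The 6 members called higher stood between rank 15 of 36, Acaa1b, and rank 35, Cpt1b, with Ehhadh at rank 31. Ucp2, Hsd17b4 and Cpt1a did not overlap one another in any library, whereas Acaa1a, Ech1 and Etfa, next to each other in the order, did.

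**Figure D3:**
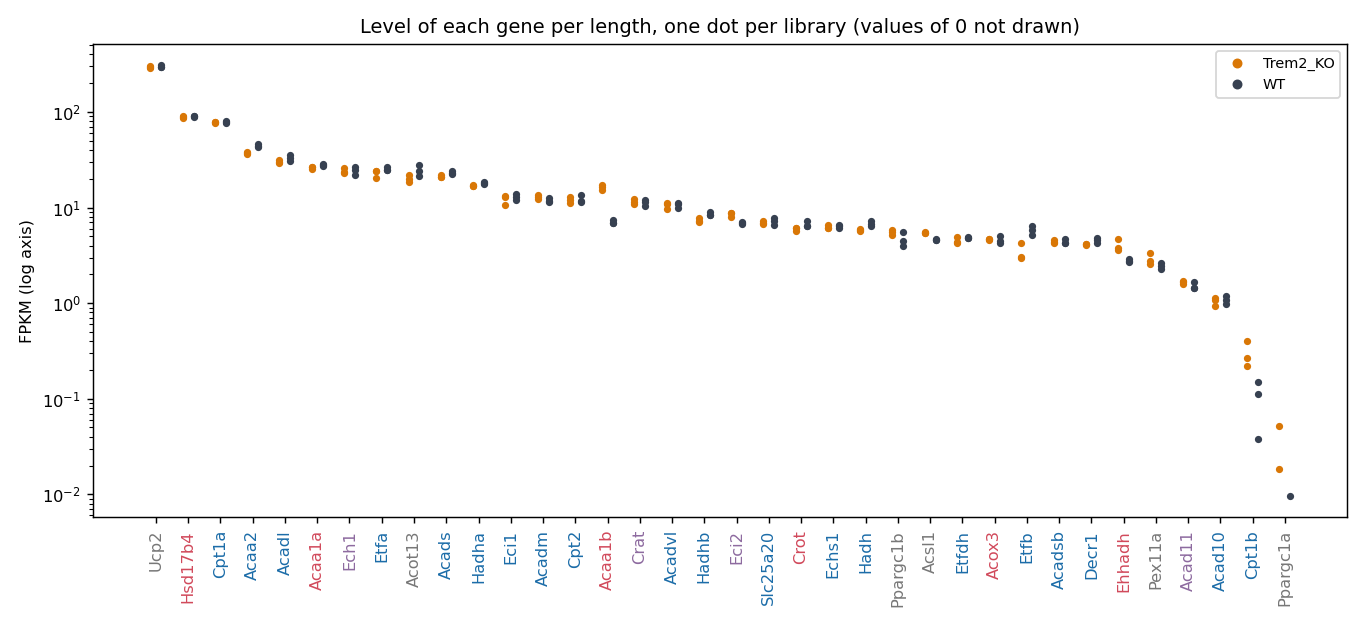
FPKM of each member in each library on a log axis (dots, Trem2_KO and WT in separate colours), ordered by the mean over all 6 libraries; values of 0 are not drawn. Ucp2, Hsd17b4 and Cpt1a lead, Cpt1b and Ppargc1a are at the bottom, and Acaa1b, at rank 15, has a 2.30-fold gap between its groups.

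Peroxisomal enzymes held the member with the smallest adjusted p, the thiolase Acaa1b. Thiolases cut the shortened chain from acetyl-CoA in the last step of the cycle, and mice carry a pair of peroxisomal genes on chromosome 9, Acaa1a and Acaa1b. Acaa1b (ENSMUSG00000010651, chr9:119148023-119157093, minus strand, GRCm38) was read at 30.1, 33.9 and 32.6 CPM in Trem2_KO libraries, against 13.5, 14.6 and 13.7 CPM in WT libraries. The lowest Trem2_KO library was above every WT library with room to spare. The rise was 2.30-fold, a log2 fold change of 1.20 (SE 0.08, edgeR adjusted p = 8.33e-18), and it passed the threshold in all 18 alternative settings.

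Acaa1a (chr9:119339676-119350299, plus strand) did not follow. It was read at 111.7, 119.3 and 118.2 CPM in Trem2_KO libraries, against 123.9, 125.2 and 120.0 CPM in WT libraries. Each Trem2_KO library was below each WT library, but the log2 fold change of -0.08 missed the threshold. The edgeR p was 0.0508 before adjustment and 0.128 after it. The 95% interval, a normal approximation from the SE, ran from -0.16 to -0.002 and is slightly narrow beside that test. Per length, Acaa1b stood at 0.605, 0.639 and 0.621 of Acaa1a in Trem2_KO libraries and at 0.246, 0.263 and 0.258 of it in WT libraries.

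The pair is close in sequence, which bears on how reads are told apart. Over 1275 coding bases, taken as the longest open reading frame of each gene in the GENCODE transcripts, they differ at 44 and are 96.5% identical, with a longest shared run of 327 bases. Coding bases 460 to 549 hold 13 of the differences and are printed from 5′ to 3′, with the differing bases in capitals, to show where reads can name their gene.
Acaa1b: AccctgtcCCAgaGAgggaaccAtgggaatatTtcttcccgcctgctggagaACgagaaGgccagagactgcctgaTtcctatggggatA
Acaa1a: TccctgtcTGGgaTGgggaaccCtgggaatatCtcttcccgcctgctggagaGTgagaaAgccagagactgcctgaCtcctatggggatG
Of all 50-base words in Acaa1b transcripts, 30.5% also occur in Acaa1a, which drew 11685 reads over the 6 libraries against 2288 for Acaa1b. The authors' counting may split or drop reads of the shared stretches, which leaves the level of each gene uncertain in part. Acaa1a also overlaps Myd88 on the other strand. Acaa1b overlaps Dlec1 on the other strand, which drew 234 reads over the 6 libraries.

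Ehhadh, the L-bifunctional enzyme that hydrates and then oxidises chains in the classical peroxisomal cycle, rose less. It was read at 11.5, 10.9 and 14.0 CPM in Trem2_KO libraries, against 8.11, 8.76 and 8.31 CPM in WT libraries. The groups did not overlap, and the third Trem2_KO library was the highest. The log2 fold change was 0.53 (SE 0.12, edgeR adjusted p = 0.000516), or 1.44-fold. Ehhadh lies at chr16:21761287-21787807 on the minus strand.

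Hsd17b4, the D-bifunctional counterpart of Ehhadh, was read at 301.5, 308.5 and 293.7 CPM in Trem2_KO libraries, against 310.5, 312.3 and 306.5 CPM in WT libraries. The groups overlapped, and the log2 fold change was -0.04 (95% interval -0.10 to 0.02, edgeR adjusted p = 0.348). Acox3, an oxidase that begins the cycle on branched chains, was read at 54.6, 54.0 and 53.4 CPM in Trem2_KO libraries, within the WT values of 49.4, 52.3 and 58.0 CPM, with a log2 fold change of 0.02 (95% interval -0.09 to 0.13).

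Crot, which loads shortened chains onto carnitine for export from the peroxisome, fell. It was read at 33.7, 31.3 and 33.2 CPM in Trem2_KO libraries, against 35.4, 39.8 and 35.5 CPM in WT libraries, without overlap and with 1 WT library well above the rest. The log2 fold change was -0.17 (SE 0.07, edgeR adjusted p = 0.0391). The call ended when Trem2_KO replicate 2 (adjusted p = 0.167), Trem2_KO replicate 3 (0.0607) or WT replicate 2 (0.255) was left out, and with scaling by total counts (0.0955), DESeq2 (0.159), limma-voom (0.0516) or limma on log2(FPKM + 1) (0.110).

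The stretches before Acaa1b and Ehhadh are printed because both peroxisomal genes rose. They are the 250 bases before each RefSeq start (GRCm38.p6), at chr9:119157094-119157343 and chr16:21787835-21788084, both on the minus strand and written 5′ to 3′ along the gene, with CCAAT boxes on either strand in capitals.
Acaa1b: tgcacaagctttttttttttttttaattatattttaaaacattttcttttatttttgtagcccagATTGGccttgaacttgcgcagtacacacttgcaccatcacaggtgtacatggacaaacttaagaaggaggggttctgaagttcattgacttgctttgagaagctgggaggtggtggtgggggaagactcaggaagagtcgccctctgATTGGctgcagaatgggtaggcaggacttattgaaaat
Ehhadh: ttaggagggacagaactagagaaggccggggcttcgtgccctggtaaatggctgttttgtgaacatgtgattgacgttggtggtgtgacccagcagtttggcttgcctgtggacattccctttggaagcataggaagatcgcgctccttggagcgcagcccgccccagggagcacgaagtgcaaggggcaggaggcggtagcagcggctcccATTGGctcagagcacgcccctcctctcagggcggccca
Acaa1b holds 2 such boxes, both in the reverse form, and Ehhadh 1. The box occurs in 33.8% of 32851 RefSeq promoters of this length. It is in any promoter of 12 of the 29 members with a promoter entry (41.4%). The first share is per promoter and the second per gene, so they are not on the same footing. The box was chosen after the sequences were seen.

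RefSeq windows of 250 bases before and 50 after the start were also searched on both strands for letters bound by known regulators of the pathway. The direct repeat of AGGTCA with 1 free base between its units is the textbook form of the PPAR element. It was in no window of the 29 member genes and in 0.0396% of all windows. The same repeat of AGGNCA was in none of the members and in 0.381% of all. The ERR element TCAAGGTCA was in none of the members and in 0.423% of all, and the E-box TCACGTGA of the TFEB family in none of the members and in 0.974% of all. The NRF1 element was in 1 member, Acad10, and in 1.27% of all windows. Such matches describe letters in these windows only. Elements this rare are mostly absent from sets of this size, so their absence from the members says little.

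Of the 6 genes for activation and carnitine transfer of fatty acids, 2 rose and none fell by edgeR. The 2 calls are 33.3% of these genes, close to the 30.4% called among all genes tested. Acsl1, which binds long-chain fatty acids to coenzyme A, rose: it was read at 58.4, 57.1 and 57.1 CPM in Trem2_KO libraries, against 47.6, 49.2 and 48.8 CPM in WT libraries. Both groups were tight and lay apart, and the log2 fold change was 0.24 (SE 0.05, edgeR adjusted p = 0.000308), or 1.18-fold. Cpt1a, the rate-limiting carnitine palmitoyltransferase of the outer membrane, was read at 333.3, 340.5 and 338.4 CPM in Trem2_KO libraries, against 338.5, 334.0 and 352.5 CPM in WT libraries. Its groups overlapped, and the 95% interval of its log2 fold change ran from -0.08 to 0.04 (edgeR adjusted p = 0.699).

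Cpt1b, the muscle form of the same enzyme, rose at very few reads. It had 13, 15 and 23 reads in Trem2_KO libraries (0.752, 0.91 and 1.35 CPM), against 6, 8 and 2 reads in WT libraries (0.383, 0.511 and 0.128 CPM). The groups did not overlap, and the third library of each group lay farthest from the other group. The log2 fold change was 1.54 (SE 0.48, edgeR adjusted p = 0.0111), and the adjusted p became 0.0947 without Trem2_KO replicate 3, 0.0897 without WT replicate 3 and 0.0807 with DESeq2. The summed reads, 51 in Trem2_KO and 16 in WT, gave a ratio of 2.95 with a 95% exact counting interval of 1.65 to 5.54, which covers counting error only. Of its 50-base words 78.6% also occur in Gm44502, a gene that overlaps it and is listed with 0 reads. Cpt1b was far below Cpt1a per length, at 0.296 FPKM in Trem2_KO and 0.101 FPKM in WT. Reads of the stretches shared with Gm44502 may have been dropped in the counting, which leaves this level uncertain in part.

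The rest of the shuttle, Cpt2 of the inner membrane, the carnitine-acylcarnitine carrier Slc25a20 and the carnitine acetyltransferase Crat, had log2 fold changes of -0.02, -0.04 and 0.05 with overlapping groups. None passed the test. For Cpt2 the 95% interval ran from -0.16 to 0.13.

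Of the 7 acyl-CoA dehydrogenases, which take the first electrons from the chain, 1 passed the test (14.3%, beside 30.4% of all genes tested). Acadl, the long-chain enzyme, was read at 62.8, 58.7 and 60.2 CPM in Trem2_KO libraries, against 71.7, 66.4 and 62.3 CPM in WT libraries. The highest Trem2_KO library overlapped the lowest WT library. The log2 fold change was -0.14 (SE 0.05, edgeR adjusted p = 0.0391), and the call ended without Trem2_KO replicate 2 (0.168), Trem2_KO replicate 3 (0.0852), WT replicate 1 (0.297) or WT replicate 2 (0.0648), and with total-count scaling (0.118), DESeq2 (0.143), limma-voom (0.0576) or limma on log2(FPKM + 1) (0.109). The medium-chain enzyme Acadm had a log2 fold change of 0.12 (edgeR adjusted p = 0.112, and 0.0412 with total counts), and the short-chain enzyme Acads one of -0.11 with groups apart (edgeR adjusted p = 0.122). The very-long-chain enzyme Acadvl, Acadsb for short branched chains, Acad10 and Acad11 had log2 fold changes of -0.02, 0.01, -0.06 and 0.14. Of Acad10's 50-base words 16.8% also occur in Acad12, which drew 1030 reads beside 634 for Acad10. The level of Acad10 is therefore uncertain in part.

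The next steps of the mitochondrial cycle lay lower in Trem2_KO. All 5 enzymes of hydration, the second dehydrogenation and thiolysis (Echs1, Hadha, Hadhb, Hadh and Acaa2) had log2 fold changes below 0. Their median was -0.20. By the test 3 of them fell, or 60.0%, beside 30.4% of all genes tested that were called either way. With total counts 4 of the 5 enzymes lay below 0 and their median was -0.17. Their summed level was 338.8, 337.1 and 333.5 CPM in Trem2_KO libraries, against 362.4, 374.5 and 371.2 CPM in WT libraries, and every Trem2_KO library was below every WT library. Echs1, the short-chain hydratase, was the exception in size, with a log2 fold change of -0.01 (95% interval -0.12 to 0.09). Echs1, with 5142 reads over the 6 libraries, overlaps Paox, with 9608, on the other strand, and with no stated strand setting such reads cannot be told apart. Acadvl, Crat and Ucp2 also overlap a gene with reads on the other strand (Dvl2, Dolpp1 and Dnajb13). Acadsb, Acad11, Etfdh, Crot and Pex11a overlap genes with fewer reads there. Hsd17b4 overlaps the pseudogene Cd63-ps on its own strand, with 193 reads beside 29831 of Hsd17b4.

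Acaa2, the mitochondrial thiolase and the counterpart of Acaa1b, was read at 58.7, 55.2 and 56.3 CPM in Trem2_KO libraries, against 66.7, 69.8 and 65.3 CPM in WT libraries. The groups lay apart, and the log2 fold change was -0.25 (SE 0.05, edgeR adjusted p = 0.000164). Of the thiolases, Acaa1b rose and Acaa2 fell, while Acaa1a, the more abundant peroxisomal one per length, lay below 0 like Acaa2 and missed the threshold. Hadh, the dehydrogenase for medium and short hydroxyacyl chains, was read at 28.9, 29.9 and 29.2 CPM in Trem2_KO libraries, against 32.4, 33.3 and 36 CPM in WT libraries. Its groups lay apart, with a log2 fold change of -0.21 (SE 0.07, edgeR adjusted p = 0.0135), though the adjusted p was 0.0823 without WT replicate 3 and 0.0779 with DESeq2.

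Hadha and Hadhb encode the alpha and beta subunits of the mitochondrial trifunctional protein, which runs the last 3 steps of the cycle on long chains at the inner membrane. Hadhb fell: it was read at 52.0, 48.6 and 46.7 CPM in Trem2_KO libraries, against 55.2, 59.5 and 55.0 CPM in WT libraries. The groups lay apart, with a log2 fold change of -0.20 (SE 0.06, edgeR adjusted p = 0.00385). Of Hadhb's 50-base words 18.1% also occur in the processed pseudogene Gm13910, which drew 2022 reads and had a log2 fold change of -0.08 (edgeR adjusted p = 0.521).

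Hadha was read at 147.7, 148.9 and 150.2 CPM in Trem2_KO libraries, against 154.7, 156.9 and 164.5 CPM in WT libraries, also apart and lower. Its log2 fold change of -0.09 (SE 0.04) missed the threshold narrowly, with an edgeR adjusted p of 0.0528. It passed with the replicate number as a block (0.0479), with no filter on low counts (0.0406) and without WT replicate 1 (0.0455). Per length, Hadhb stood at 0.466, 0.432 and 0.411 of Hadha in Trem2_KO libraries and at 0.472, 0.502 and 0.443 of it in WT libraries, and the groups overlapped. The sequence shared with Gm13910 leaves the level of Hadhb in this ratio uncertain in part.

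The subunit genes lie head to head on chromosome 5, with Hadha on the minus strand and Hadhb on the plus strand, and their RefSeq starts, 30154980 and 30155253, are 273 bases apart. The stretch between the ends of both genes in the deposited table, chr5:30155163-30155247 of GRCm38.p6, is printed 5′ to 3′ on the plus strand because it lies between both subunit genes. It holds no CCAAT box, and so no capitals.
Hadha and Hadhb: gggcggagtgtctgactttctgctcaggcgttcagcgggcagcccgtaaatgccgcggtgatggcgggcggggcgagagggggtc

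Of the 3 genes of electron transfer 1 fell, Etfb, and all 3 lay below 0. The 1 call is 33.3% of these genes, close to the 30.4% called among all genes tested. Etfa and Etfb encode the subunits of the electron transfer flavoprotein, and Etfdh the dehydrogenase that hands its electrons to ubiquinone. Etfb was read at 5.03, 3.46 and 3.53 CPM in Trem2_KO libraries, against 6.77, 7.42 and 6.01 CPM in WT libraries. The groups lay apart, with a log2 fold change of -0.74 (SE 0.17, edgeR adjusted p = 0.000349), so the Trem2_KO level was 0.597 of the WT level. Of its 50-base words 43.8% also occur in Gm45233, a gene that overlaps it and is listed with 0 reads.

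Etfa was read at 44.1, 44.9 and 37.7 CPM in Trem2_KO libraries, against 45.7, 49.4 and 45.3 CPM in WT libraries, apart by a small gap and lowest in the third Trem2_KO library. Its log2 fold change of -0.15 had an edgeR adjusted p of 0.0637, which became 0.0448 with the replicate block, 0.0445 with no filter and 0.0394 without Trem2_KO replicate 2. Per length, Etfb stood at 0.18, 0.122 and 0.148 of Etfa in Trem2_KO libraries and at 0.233, 0.237 and 0.209 of it in WT libraries, without overlap. Reads of the stretches shared with Gm45233 may have been dropped in the counting, which leaves the level of Etfb in this ratio uncertain in part. Etfdh had a log2 fold change of -0.10 with overlapping groups (edgeR adjusted p = 0.292).

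Among the auxiliary enzymes, which prepare double bonds of unsaturated chains for the cycle, Eci2 rose. This enoyl-CoA isomerase is found in peroxisomes and mitochondria. It was read at 49.4, 44 and 48.4 CPM in Trem2_KO libraries, against 39.3, 38.7 and 37.4 CPM in WT libraries. The groups lay apart, with a log2 fold change of 0.30 (SE 0.06, edgeR adjusted p = 9.41e-05). Its mitochondrial relative Eci1, the dienoyl-CoA isomerase Ech1 and the reductase Decr1 had log2 fold changes of -0.07, -0.002 and -0.14, and none passed the test, although Decr1's groups lay apart. Gm16984, an RNA gene on the other strand at Eci2, had 36, 40 and 27 reads in Trem2_KO libraries and 16, 6 and 10 in WT libraries, few beside the 585 to 855 reads of Eci2.

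**Figure D4:**
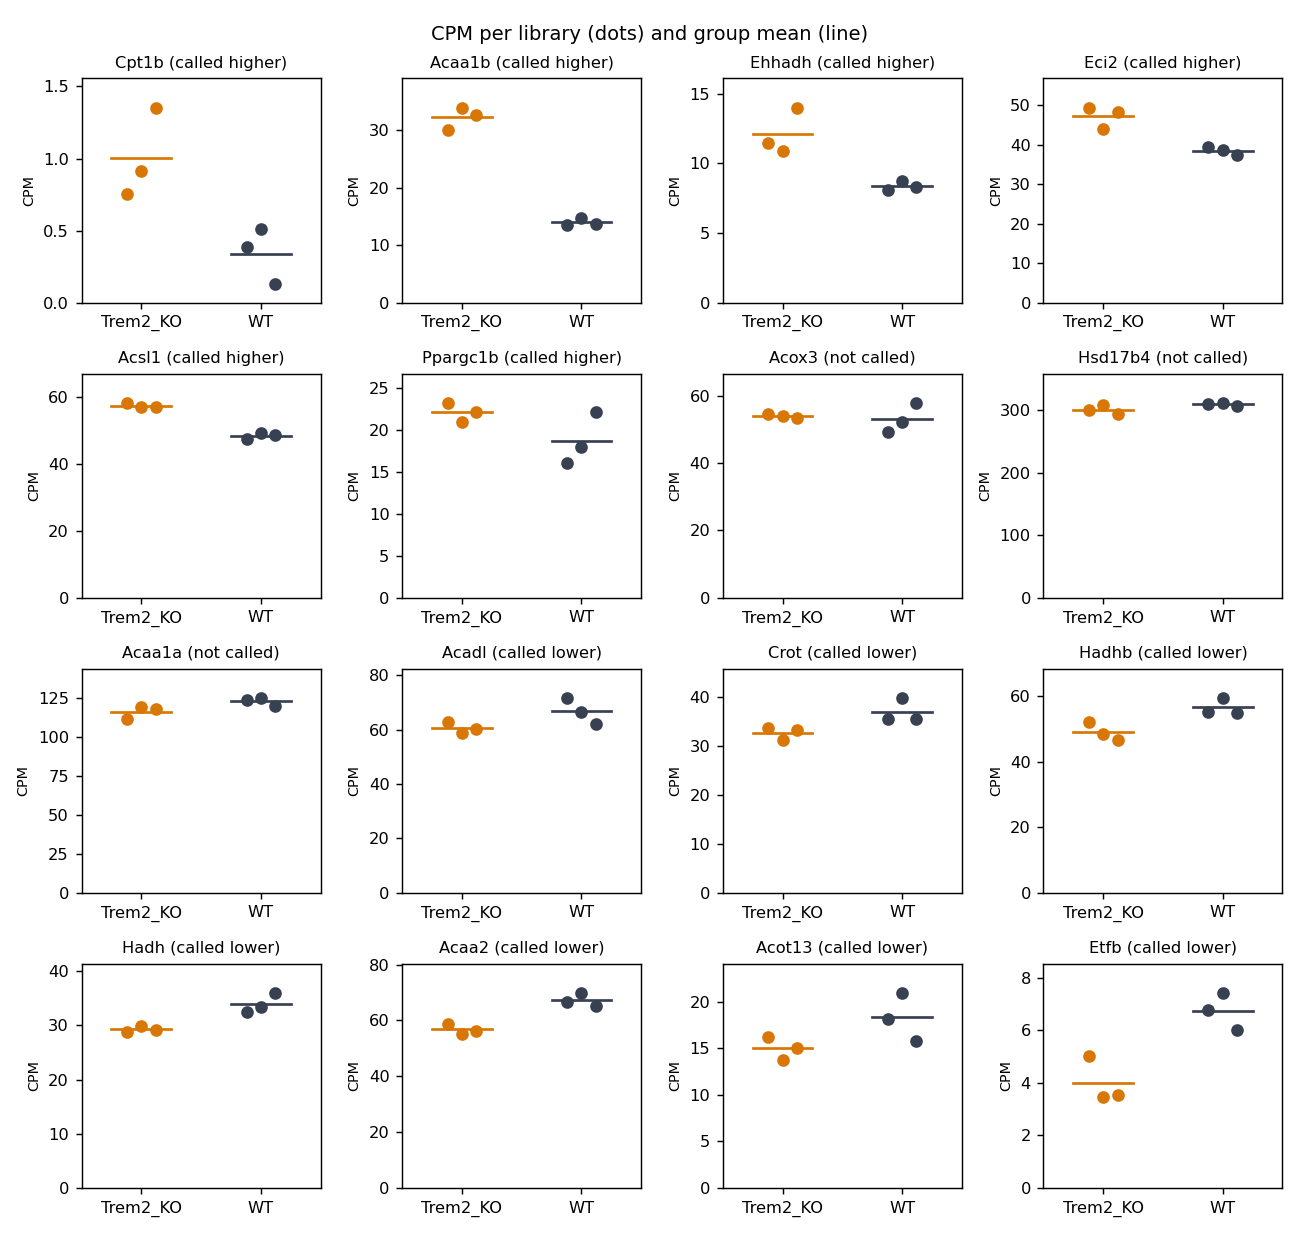
CPM of the 13 called members and of the 3 peroxisomal members not called, per library (dots) with group means (lines), Trem2_KO left of WT; each axis starts at 0 and has its own range. Acaa1b, Ehhadh, Eci2 and Acsl1 are higher in every Trem2_KO library, Cpt1b reaches 1.35 CPM at most, and the groups of Acadl, Acot13 and Ppargc1b overlap.

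The linked proteins were mixed. Ppargc1b, a coactivator of oxidative metabolism, was read at 23.2, 20.9 and 22.1 CPM in Trem2_KO libraries, against 16, 18 and 22.2 CPM in WT libraries. The third WT library lay among the Trem2_KO libraries, and the log2 fold change was 0.24 (SE 0.09, edgeR adjusted p = 0.0429). The call ended without Trem2_KO replicate 1 (0.154), Trem2_KO replicate 3 (0.0739), WT replicate 1 (0.329) or WT replicate 2 (0.150), with no filter (0.0525), and with DESeq2 (0.189), limma-voom (0.0509) or limma on log2(FPKM + 1) (0.178). Its relative Ppargc1a had 6, 2 and 0 reads in Trem2_KO libraries and 1, 0 and 0 in WT libraries, too few for a test. On plain library totals, 3 reads in a library correspond to 0.175 to 0.19 CPM.

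Acot13, a thioesterase of mitochondria that frees fatty acids from coenzyme A, was read at 16.2, 13.7 and 15.1 CPM in Trem2_KO libraries, against 18.2, 21.0 and 15.9 CPM in WT libraries. The groups overlapped, and the log2 fold change was -0.29 (SE 0.10, edgeR adjusted p = 0.0218). The call ended without Trem2_KO replicate 2 (0.136), WT replicate 1 (0.0510) or WT replicate 2 (0.238), and with DESeq2 (0.117) or limma on log2(FPKM + 1) (0.0919). Ucp2 was read at 2019, 2057 and 2120 CPM in Trem2_KO libraries, against 2076, 2154 and 2100 CPM in WT libraries, with overlap and a 95% interval of -0.08 to 0.02 for the log2 fold change. Pex11a, which helps peroxisomes to divide, had a log2 fold change of 0.25 with overlapping groups (edgeR adjusted p = 0.154).

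Counted by separation alone, 15 members had groups that did not overlap, 5 higher and 10 lower in Trem2_KO. This is 42.9% of the members tested, against 41.6% of all genes tested, where 20.9% were apart and higher and 20.7% apart and lower. Of the mitochondrial members 1 was apart and higher and 8 were apart and lower, and of the peroxisomal members 2 were apart each way. The quartiles of all genes tested lay at -0.15 and 0.17 on the log2 scale, and Acaa1b, Cpt1b, Ehhadh and Etfb lay far outside them.

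Genes of the pathway outside the 36 were described with lists taken from textbook membership, also with earlier results of these data known. Of 17 other peroxisomal genes tested, 3 rose and 5 fell, with a median log2 fold change of -0.06. These calls are 47.1% of the 17, beside 30.4% of all genes tested. Scp2, the sterol carrier with thiolase activity for branched chains, fell with a log2 fold change of -0.30 (edgeR adjusted p = 3.69e-11), and Nudt7, a peroxisomal coenzyme A hydrolase, with one of -1.18 (edgeR adjusted p = 4.20e-07).

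Of 18 other mitochondrial acyl-CoA genes tested, 2 rose and 2 fell (22.2%, beside 30.4% of all genes tested), with a median of -0.01. Acsl4, an acyl-CoA synthetase with a preference for arachidonic acid, rose by a log2 fold change of 0.20 (edgeR adjusted p = 0.000142) and Acacb, which makes the Cpt1 inhibitor malonyl-CoA, by 1.27 (edgeR adjusted p = 0.00139) at 2.43 CPM in Trem2_KO and 1.00 CPM in WT. Acsl5 had a log2 fold change of -0.12 (edgeR adjusted p = 0.00524). Of 16 genes of peroxisome biogenesis, all tested, 3 rose and 1 fell, with a median of 0.03. Pex13, part of the import pore, was read at 51.7, 48.7 and 52.3 CPM in Trem2_KO libraries, against 32.0, 32.1 and 34.7 CPM in WT libraries. This was a log2 fold change of 0.63 (edgeR adjusted p = 2.30e-12), while Pex14, its docking partner, had one of -0.34 (edgeR adjusted p = 0.0138) and Pex6 one of 0.12 (0.0341).

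Of 12 tested genes of the PPAR alpha list outside the members, 6 rose and 1 fell, with a median of 0.27. These calls are 58.3% of the tested list, against 30.4% of all genes tested. The gene that fell, named after its values were seen, was Creb3l3, with a log2 fold change of -0.46 (edgeR adjusted p = 0.000727). Fabp1, Acot1 and Angptl4 were among the 5 not called. Cyp4a14, a fatty acid omega-hydroxylase and a classical PPAR alpha target of hepatocytes, was read at 12.9, 11.1 and 12.8 CPM in Trem2_KO libraries, against 0.702, 1.28 and 1.02 CPM in WT libraries, a log2 fold change of 3.61 (edgeR adjusted p = 2.23e-22). Cyp4a10 followed with 2.11 (edgeR adjusted p = 1.47e-13). It has close relatives in the same gene cluster, so its reads are uncertain. Whether Cyp4a14 shares reads with such relatives was not examined. Ppara itself, named after its values were seen, rose by a log2 fold change of 1.93 (edgeR adjusted p = 8.58e-06) at 2.38 CPM in Trem2_KO and 0.618 CPM in WT. Of the 7 ketone body genes tested, 3 rose and none fell by edgeR (42.9% called). Among them the carrier Slc16a1 had a log2 fold change of 1.11 and the dehydrogenase Bdh1 one of 0.76.

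Markers of other cells moved too, and Acaa1b, Ehhadh and the Cyp4a genes are also strongly expressed by hepatocytes. Of 24 hepatocyte markers, none of which was at 0, 6 rose and 10 fell, with a median log2 fold change of -0.12. Mup3, a urinary protein of hepatocytes, had a log2 fold change of -1.35 (edgeR adjusted p = 1.96e-30), Serpina3k one of -0.72 and Apoa1 one of -0.71. The 6 that rose, named after their values were seen, were Cyp3a11 with a log2 fold change of 0.67, Pck1 with 0.42, Ass1 with 0.36, Tat with 0.29, Hpd with 0.29 and Tdo2 with 0.28. Albumin averaged 779.7 CPM in Trem2_KO and 806.0 CPM in WT and did not pass the test (edgeR adjusted p = 0.187). The summed markers were lower in every Trem2_KO library than in every WT library, while single markers moved both ways.

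Of 17 sinusoidal endothelial markers, none at 0, 12 rose and 2 fell, with a median of 0.44, and their sum was 2064 to 2081 CPM in Trem2_KO and 2097 to 2113 CPM in WT. Cdh5, named after its values were seen, was the largest part of the sum and fell, with 1129 CPM in Trem2_KO, 1257 CPM in WT and a log2 fold change of -0.15 (edgeR adjusted p = 8.57e-07). Ptprb, a phosphatase of endothelial cells, had a log2 fold change of 0.67, Ehd3 one of 0.61 and Flt4 one of 0.75. Of 14 Kupffer cell markers, none at 0, 11 fell and none rose by edgeR, with Marco, a scavenger receptor, at -1.11, Slc40a1 at -0.38 and Timd4 at -0.34 on the log2 scale. Of 9 monocyte markers tested 3 rose and 1 fell; Ccr2 had a log2 fold change of 1.45, Cx3cr1 one of 1.46 and Plac8 one of -0.22, and the sum was 133.2 to 136.4 CPM in Trem2_KO and 123.1 to 129.4 CPM in WT. Lymphocyte markers summed to 23.8 to 29.2 CPM in Trem2_KO and 34.1 to 38.5 CPM in WT, with 2 of 4 tested lower (Ighm at -0.82 and Cd79b at -0.32) and none higher. Markers of stellate cells, cholangiocytes and neutrophils summed to 12.5 to 14.0 CPM in Trem2_KO and 15.5 to 16.1 CPM in WT, with none of 7 called and 1 of 14 at 0; Lrat, of stellate cells, had a log2 fold change of -0.40 (edgeR adjusted p = 0.258). The part of these cells in the changes of the members was not tested.

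**Figure D5:**
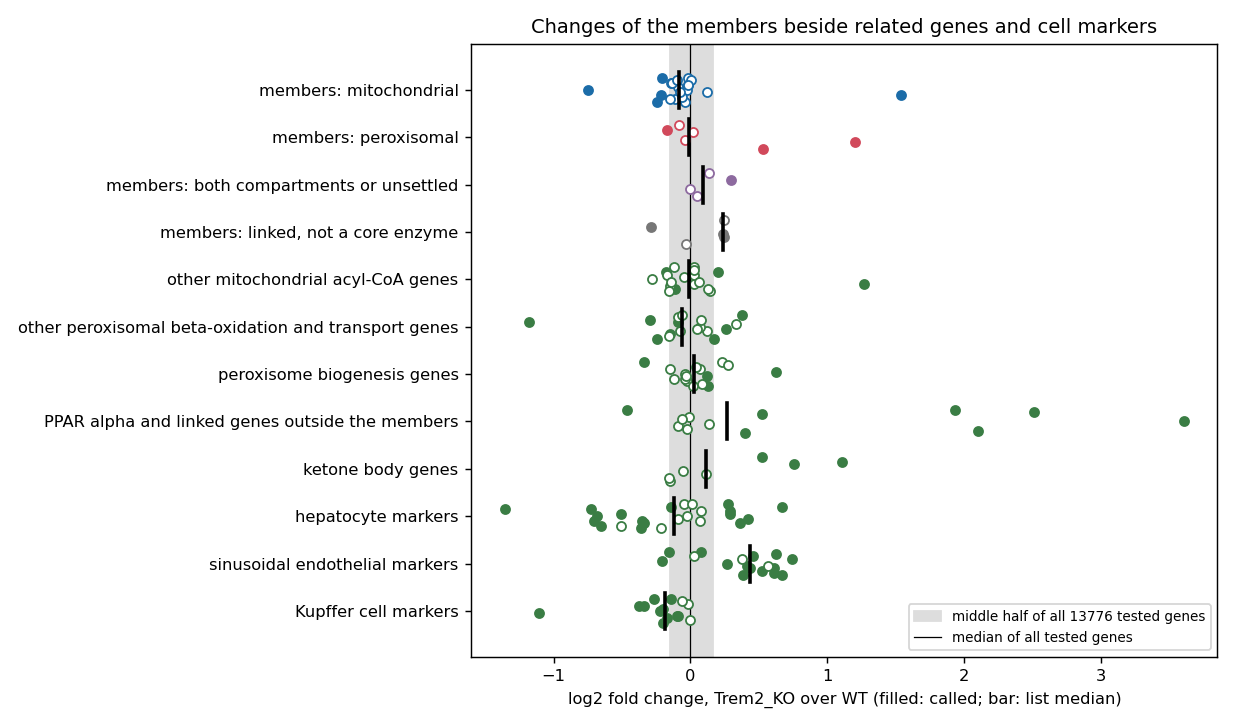
Log2 fold change (Trem2_KO over WT, edgeR) of each tested member by compartment, of the related gene lists and of cell type markers; filled dots passed the threshold, thick bars are list medians and the grey band holds the quartiles of all tested genes. Mitochondrial members lie mostly just below 0, and Acaa1b and Ehhadh lie above the other peroxisomal members. The PPAR alpha list reaches furthest to the right. Endothelial markers lie mostly above 0, up to 0.75, Kupffer cell markers lie below 0 and hepatocyte markers reach both ways.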

How the data were processed

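RNA of sorted Kupffer cells was measured in 3 Trem2_KO and 3 WT libraries, grouped by genotype from their titles. The deposited counts are whole numbers of reads per gene. For the authors' processing, the submitters' notes list HISAT2 2.0.5, featureCounts 1.5.0-p3, DESeq2 1.16.1 and GRCm38/mm10, without the role of each. How strand and multiply fitting reads were handled was not given in the sources used here. In the deposited FPKM, each value is the gene's count over its length and over a library constant, which was 0.989 to 1.02 times the library total. No column of per-sample values was left without a sample.

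Counts were analysed with edgeR 4.0.16 (R 4.3.3). After filterByExpr by group, which kept 13776 of 54532 genes, and TMM scaling, the robust quasi-likelihood test had genotype as its single term; p-values were adjusted by Benjamini-Hochberg over all tested genes and called under 0.05. The common biological coefficient of variation was 0.0378. Replicates of a group differed beyond sampling noise (chi-square per degree of freedom of 1.98 to 2.94), so none was counted as a repeat. The tests were tried on simulated data first. CPM use TMM-scaled totals. A library with 0 reads of a gene allows up to 3 reads, which is 0.175 to 0.19 CPM on plain library totals. Such limits and intervals cover counting error only.

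Values per library are given for every called member and every peroxisomal member, the others by role; of each further list up to 3 called genes with the smallest p are named, or 1 where none is called. Some genes that these rules select are not reported here. The members and lists were chosen with earlier results of these data known. Alternatives were DESeq2 size factors, total counts, no filter, a stricter filter (5 CPM in 3 libraries), DESeq2 1.42.0, limma 3.58.1 (voom, and log2 of FPKM plus 1 or 0.1), the replicate block, coefficients of variation fixed at 0.1 and 0.2, protein-coding genes only, each library left out, other compartment assignments and Acaa1a and Acaa1b left out. Gene positions are those of the deposited table, promoters come from RefSeq (GRCm38.p6; 29 of 36 members matched) and transcript words from GENCODE M21.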

Additional observations from a re-analysis of the deposited data

How the results depend on the processing

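None of the 13 called members changed the sign of its log2 fold change under any alternative. Acaa1b was called in all 18 settings, Ehhadh and Etfb in 17, and Eci2, Acaa2, Acsl1 and Hadhb in 16, each lost only with the coefficient of variation fixed at 0.1 or 0.2. Hadh was called in 14, Cpt1b in 14 of 17, Acot13 in 10, Crot in 8 and Acadl and Ppargc1b in 7 each.

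Scaling by total counts moved the median of all genes to 0.03 (log2) from -0.01 and called 2517 genes higher and 1588 lower, 61.3% of calls higher beside 50.3% with TMM; it called 2 mitochondrial members higher and 0 peroxisomal members lower. The stricter filter called 0 mitochondrial members higher, since it removes Cpt1b. DESeq2 called 1428 genes higher and 1385 lower (19.4% of those tested), 3 members lower, 0 mitochondrial members higher, 3 mitochondrial lower and 0 peroxisomal lower. Limma-voom called 0 peroxisomal members lower, and limma on FPKM, with either pseudocount, 4 members lower and 0 peroxisomal lower. With the coefficient of variation fixed at 0.1, 938 genes were higher and 549 lower (10.8%), with 3 members higher, 1 lower, 1 mitochondrial lower and 0 peroxisomal lower. Fixed at 0.2, 268 genes were higher and 103 lower (2.69%), with 2 members higher, 0 lower, 0 mitochondrial lower, 1 peroxisomal higher and 0 peroxisomal lower. Counting Ech1, Eci2, Crat and Acad11 as peroxisomal raised the difference of the compartment medians to 0.12, and counting them as mitochondrial lowered it to 0.04 and gave 2 mitochondrial members higher. Without Acaa1a and Acaa1b, 1 peroxisomal member was higher.

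Leaving out 1 library at a time gave 1717 to 1956 genes higher and 1646 to 1953 lower, 4 to 6 members higher and 4 to 7 lower, 0 to 1 mitochondrial members higher and 4 to 5 lower, 2 peroxisomal members higher and 0 to 1 lower, and a difference of medians of 0.034 to 0.123, highest without WT replicate 3. Other causes were not tested.

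The replicate numbers did not pair the libraries: deviations of same-numbered libraries correlated at -0.008, 0.003 and 0.036. With the number as a replicate block, 2119 genes were higher and 2111 lower, 6 members rose and 9 fell, 7 of them mitochondrial, the additions being Hadha and Etfa, and the difference of medians was 0.08. The calls of Eci2, Acaa2, Acsl1 and Hadhb thus rest on the small spread between these libraries, and Cpt1b and Ppargc1a are limited by their read numbers.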
